A study of Homo sapiens with 12 samples.

Results

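The canonical histone genes of the chromosome 6 histone locus were described in H3K27ac peak lists from RPMI 8226, an established human multiple myeloma cell line. The 55 genes were the protein-coding genes of the RefSeq table (GRCh38.p14) between 25700 and 28000 kb of chromosome 6 whose symbols begin with H1-, H2AC, H2BC, H3C or H4C, out of 19970 protein-coding genes in all. They comprised 6 genes of H1, 12 of H2A, 15 of H2B, 10 of H3 and 12 of H4. Cells carried a scramble control (SCR) or a knockout of CEBPB (CEBPB KO), which encodes the transcription factor C/EBPβ, and each genotype was kept for 2 h with DMSO vehicle or with 10 µM dexamethasone, a synthetic glucocorticoid. Each of the 4 groups had 3 libraries, made by CUT&RUN, in which an antibody directs a nuclease to cut out the DNA bound at the mark. The labels leave unsaid if the knockout is clonal or pooled and if replicate libraries stem from different cultures, so every p-value measures the spread between libraries, which may be technical. The title of the series gives its question as the effect of C/EBPβ loss on enhancer responses to dexamethasone.

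Canonical histones package newly copied DNA. H2A, H2B, H3 and H4 form the nucleosome core and H1 binds the linker between nucleosomes. Their genes lie in clusters, lack introns as a rule, and are transcribed mainly in S phase, with NPAT as the shared coactivator and mRNAs that end in a stem-loop. Many H2A and H2B genes stand head to head and share the short stretch between their start sites, where an octamer motif, bound by the OCT1 factor POU2F1, and CCAAT boxes are common. H3K27ac, acetylation of lysine 27 of histone H3, marks active promoters and enhancers.

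Among genes with a known start site, 9 H2A and H2B pairs had start sites facing outwards within 193 to 247 bases of intervening DNA. H2AC12, which lies beside H2BC12, had no start site in the reference used, so these were not counted as a pair. The stretch between H2AC14 and H2BC14 is shown because it is where the knockout libraries differed. H2AC7/H2BC7 and H2AC17/H2BC17 are shown as pairs whose start sites were both covered by peaks in all 12 libraries, and the testis pair H2AC1/H2BC1 as one covered in none. All are RefSeq GRCh38.p14 sequences of the plus strand, 5′ to 3′, and run from the base after the H2A start site to the base before the H2B start site. Capitals mark the octamer ATTTGCAT, CCAAT and TATAAA on either strand.
H2AC14/H2BC14, chr6:27814778-27815021: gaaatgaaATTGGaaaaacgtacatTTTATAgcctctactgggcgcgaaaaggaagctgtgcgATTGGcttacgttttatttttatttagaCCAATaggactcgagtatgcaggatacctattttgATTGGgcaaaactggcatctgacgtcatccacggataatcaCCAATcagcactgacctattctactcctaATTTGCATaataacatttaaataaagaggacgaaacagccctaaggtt
H2AC7/H2BC7, chr6:26199294-26199515: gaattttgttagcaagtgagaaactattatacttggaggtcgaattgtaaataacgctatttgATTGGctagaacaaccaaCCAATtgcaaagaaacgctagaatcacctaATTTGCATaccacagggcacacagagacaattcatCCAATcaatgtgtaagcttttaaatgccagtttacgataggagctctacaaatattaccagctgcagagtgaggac
H2AC17/H2BC17, chr6:27893186-27893424: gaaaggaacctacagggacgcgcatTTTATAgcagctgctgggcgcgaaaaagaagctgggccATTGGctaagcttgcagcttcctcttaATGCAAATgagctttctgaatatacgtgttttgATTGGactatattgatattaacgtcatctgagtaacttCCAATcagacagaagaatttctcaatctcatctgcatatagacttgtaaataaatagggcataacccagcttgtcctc
H2AC1/H2BC1, chr6:25726563-25726776: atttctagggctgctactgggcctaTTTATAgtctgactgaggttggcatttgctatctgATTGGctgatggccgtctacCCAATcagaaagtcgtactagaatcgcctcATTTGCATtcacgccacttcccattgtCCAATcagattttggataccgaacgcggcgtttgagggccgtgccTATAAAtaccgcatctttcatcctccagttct
The octamer was present in all 4 stretches, the covered and the uncovered alike. Of the 9 pairs, 7 held it and all 9 held CCAAT.

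Promoter sequences, from 250 bases before to 50 bases after the start site, matched 50 of the 55 genes by symbol. The octamer ATTTGCAT, searched on both strands, lay in 22 of these 50 promoters (44.0%) and in 269 of 15811 promoters of the whole table (1.70%). It followed the histone class. The octamer was in 9 of 11 H2A and 12 of 15 H2B promoters, in 1 of 8 H3 promoters, and in 0 of 6 H1 and 0 of 10 H4 promoters. CCAAT was in 43 of 50 (86.0%, against 36.3% of the table), in every H1, H2A, H2B and H3 promoter searched but in 3 of 10 H4 promoters. TATAAA was in 33 of 50 (against 9.64% of the table), spread over all classes, from 3 of 6 H1 to 11 of 15 H2B promoters. These are letter matches, not bound sites.

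Peaks per library numbered 41164 to 56421 (chromosomes 1 to 22 and X), covering 48.0 to 66.4 Mb. The totals of the scramble libraries (48.0 to 66.4 Mb) enclosed those of the knockout libraries (51.9 to 64.5 Mb). The lists hold no read counts, so depth is unknown. The plasma cell markers matched the labelled line: 9 of 10 were covered in all 12 libraries, and the other, SLAMF7, in 5. Of markers of other cell types, LYZ (myeloid) and COL3A1 (stromal) were at 0 in all libraries, but 2 of 5 T cell, 2 of 5 myeloid and 4 of 5 stromal or epithelial markers were covered in all 12. Among these were CSF1R (6.84 kb on average), ITGAM (2.69 kb) and KRT8 (9.32 kb). The summed marker coverage was 2.76 to 7.98 kb for 5 T cell markers, 6.82 to 14.5 kb for 5 myeloid and 14.3 to 21.2 kb for 5 stromal or epithelial markers. The window of CEBPB itself was covered over 2.97 to 3.43 kb in every library, which does not check the knockout, since acetylation of a gene can persist without its protein. Histone genes are near-identical copies in their coding parts, and how reads that align to several copies were treated is not given in the sources used here.

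Peaks lay at most of the histone genes, with a few uncovered ones among them. The window of each gene was its span with 5 kb on either side, and 47 of the 55 windows were covered in all 12 libraries. A further 3 were covered in some libraries, H4C6 in 7 and H3C6 and H4C13 in 2 each. The remaining 5 windows, those of H2AC1, H2BC1, H2BC3, H3C3 and H3C11, were at 0 in all 12. Start sites were known for 50 genes: 36 were covered in all 12 libraries, 13 in none, and 1, that of H2BC14, in 6. Counting alternative starts, 39 of 54 histone start sites were covered in all 12 libraries (72.2%), beside 47.3% of the 22131 start sites of the table. Because neighbours are close, a covered window need not mean a covered gene. In 6 genes (H1-1, H1-6, H2BC6, H4C7, H1-5 and H3C12) the window was covered in all 12 libraries but no peak touched the gene itself.

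The linker histone genes were the least covered class at their start sites, which were covered in all 12 libraries at 3 of 6 (H1-2, H1-3 and H1-4). H1-4 had the highest H1 window coverage, 36.0% ± 6.2 (SD, n = 12 libraries), and H1-5 the lowest, 6.80% ± 1.2. H1-6, the testis linker variant, had no peak on its span, and its window value of 11.8% ± 2.3 came from neighbouring peaks.

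H2A and H2B genes were covered together. Start sites were covered in all 12 libraries at 10 of 11 H2A and 11 of 15 H2B genes, and both starts at 7 of the 9 head-to-head pairs. The exceptions were H2AC14/H2BC14 and the testis pair H2AC1/H2BC1, the germline versions of these core histones. The highest values were 45.2% ± 0.32 of the window for H2AC7 and 52.0% ± 0.34 for its partner H2BC7.

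H3 genes had 5 of 8 known start sites covered in all 12 libraries, and H4 genes 7 of 10. The highest H3 window value, 44.1% ± 2.9 for H3C12, came entirely from the adjacent H2AC17/H2BC17 peak, while H3C3 and H3C11 were at 0. H4C2 had the highest H4 value, 28.8% ± 1.6, and H4C13 the lowest, 0.523% ± 1.4. Median window coverage was 14.3% for H1, 26.7% for H2A, 26.1% for H2B, 27.8% for H3 and 13.7% for H4 genes. These class values share peaks between neighbours and are given as a description.

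**Figure D1:**
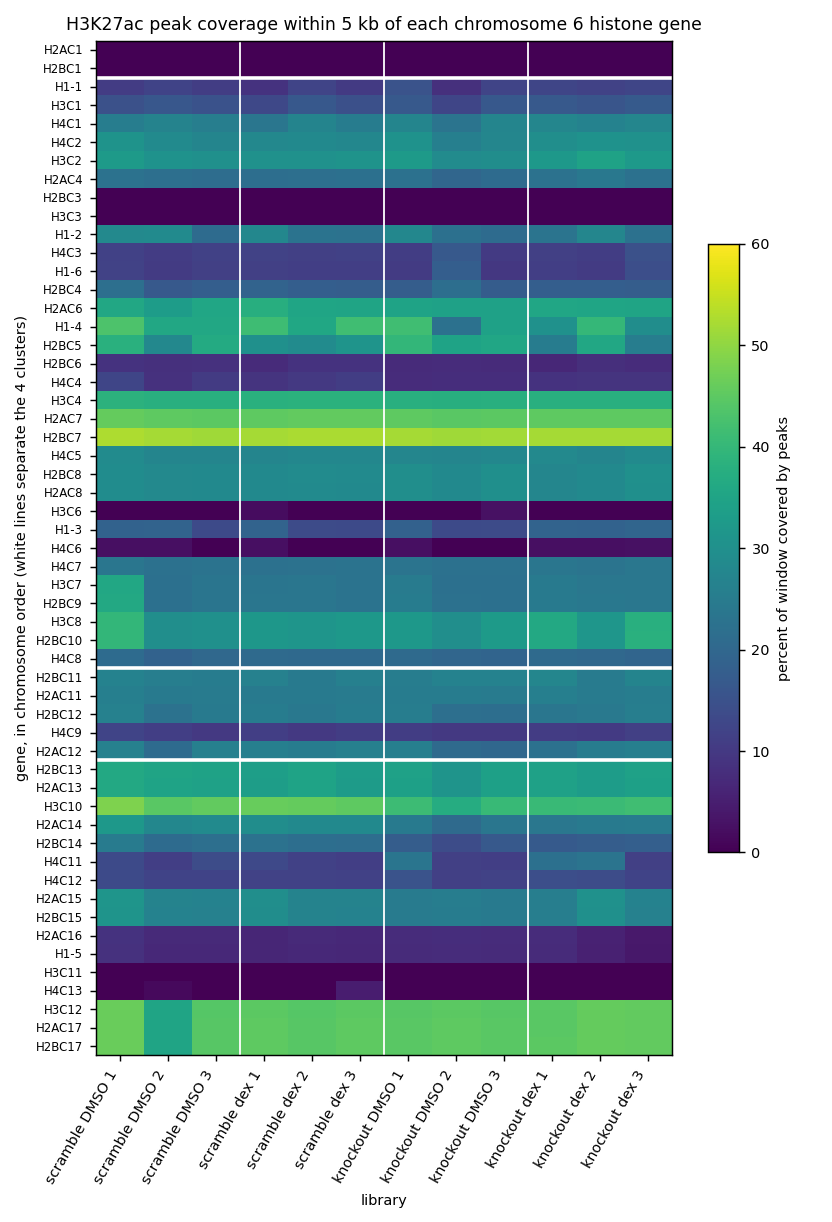
Percent of each 5 kb window covered by H3K27ac peaks (colour) for the 55 histone genes in chromosome order (rows) and the 12 libraries (columns, by group). H2AC1, H2BC1, H2BC3, H3C3 and H3C11 are at 0 in every column, H2BC7 is the brightest row, and the rows change far more between genes than between columns.

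A gap of over 200 kb between neighbours divided the genes into 4 clusters. The first was the testis pair, with 0 kb covered. The second, from H1-1 to H4C8, was covered over 41.9 ± 2.0 kb (n = 12 libraries, 20.4% of its windows), the third, from H2BC11 to H2AC12, over 6.38 ± 0.28 kb, and the fourth, from H2BC13 to H2BC17, over 15.6 ± 0.82 kb. In the second cluster the groups had 42.8 ± 3.7 kb (scramble DMSO, n = 3), 40.7 ± 0.74 kb (scramble dexamethasone), 42.3 ± 1.7 kb (knockout DMSO) and 41.6 ± 1.2 kb (knockout dexamethasone). In the fourth they had 15.7 ± 1.2, 15.7 ± 0.26, 15.1 ± 0.90 and 15.8 ± 0.92 kb in the same order. These group means lay within 1 SD of the scramble DMSO mean.

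Histone gene peaks were wide and of middling height. Each library held 27 to 29 peaks at the histone genes, with a median width of 2056 to 2507 bp, against 943 to 1031 bp for all peaks of the same library. That put the median histone peak at percentile 87.9 to 93.1 by width. By the authors' fold enrichment it lay at percentile 36.7 to 59.0. Merging the peaks of the 12 libraries gave 32 regions at the histone genes, of which 28 were covered in all 12 libraries and 15 lay on 2 or more genes. The most constant was the region of H3C4, H2AC7 and H2BC7, with 4681 to 4765 bp in every library (4.72 ± 0.027 kb, coefficient of variation 0.572%).

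With the knockout, the H3K27ac peak at the H2AC14/H2BC14 pair was shorter and did not reach the start site of H2BC14. H2AC14 encodes an H2A and H2BC14 an H2B. Their start sites lie 245 bp apart, at 27814777 and 27815022 of chromosome 6 (hg38), in the fourth cluster. Covered length in the merged region (27813883 to 27815224) was 1277, 1021 and 1160 bp in the scramble DMSO libraries and 1306, 1149 and 1261 bp in the scramble dexamethasone libraries. It was 740, 651 and 663 bp in the knockout DMSO libraries and 663, 806 and 769 bp in the knockout dexamethasone libraries. All 6 knockout libraries lay below all 6 scramble libraries. The share of all regions separated in this way was not computed. Averaged over treatments, 14.2% of all 59735 tested regions were called with the knockout. The difference in log2(bp + 500) after quantile normalisation was −0.52 ± 0.092 (SE, 3 against 3 libraries, adjusted p = 0.0063 in limma) under DMSO, −0.50 ± 0.092 (adjusted p = 0.0065) under dexamethasone and −0.51 ± 0.065 (adjusted p = 0.00042) averaged over treatments. Without any 1 of the 12 libraries it stayed between −0.57 and −0.45 under DMSO, with an adjusted p of 0.0086 to 0.025. The averaged call was also made with strong peaks alone (−log10 q of at least 2, log2 −0.73, adjusted p = 0.035), whereas those under DMSO (log2 −0.53, adjusted p = 0.34) and under dexamethasone (log2 −0.94, adjusted p = 0.073) were not.

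**Figure D2:**
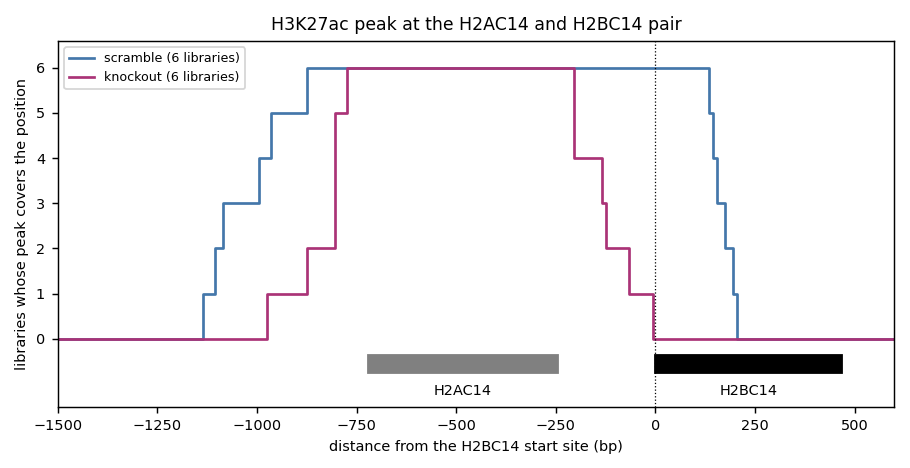
Number of libraries (of 6 scramble and 6 knockout) whose peak covers each position, against the distance from the H2BC14 start site in bp, with the gene spans below. The scramble peaks end 137 to 202 bp past the start site and the knockout peaks 3 to 210 bp before it.

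The genotypes were furthest apart at the right edge of this peak, which was 168 ± 27 bp past the H2BC14 start in the 6 scramble libraries (137 to 202 bp) and short of it, at −124 ± 81 bp, in the 6 knockout libraries (−210 to −3 bp). The start site of H2BC14 was thus covered in 6 of 6 scramble and 0 of 6 knockout libraries, while that of H2AC14 was covered in all 12. This pattern was met by 1 of the 40 histone start sites covered in any library and by 0.751% of the 13183 start sites covered in any library. The reverse was met by 0 of the 40 and by 0.402% of that background. At the left edge, the peak reached 628 to 894 bp past the H2AC14 start, along the 476 bp gene and beyond, in scramble libraries and 532 to 727 bp in knockout libraries, ranges that overlap.

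The H2AC14/H2BC14 peak was weak in both genotypes. The authors' fold enrichment was 2.43 ± 0.18 in scramble and 2.19 ± 0.12 in knockout libraries (n = 6), and the authors' −log10 q was 6.72 ± 1.3 and 2.97 ± 0.96. By fold it lay at percentile 1.55 to 8.98 of the peaks of its library in scramble and 0.506 to 2.36 in knockout. In the first knockout dexamethasone library its −log10 q was 1.51, so it is absent there among strong peaks. The summed coverage of the plasma cell markers moved with genotype as well, from 47.1 to 53.5 kb in scramble to 54.0 to 60.4 kb in knockout libraries, and its part in the result was not tested. SLAMF7 was part of that shift, covered in 5 of 6 knockout libraries (1.41 ± 0.91 kb, n = 6) and listed at 0 in all 6 scramble libraries. The T cell marker CD4 moved the other way, from 1.61 ± 1.4 kb in scramble to 0.155 ± 0.38 kb in knockout libraries (n = 6, log2 −1.52, adjusted p = 0.037 in limma), a call kept in 3 of the 12 fits without 1 library (adjusted p = 0.014 to 0.088). CD4 was covered in 6 of the 12 libraries, most of them scramble, and entered the fit through that genotype, so its call supports nothing. Summed T cell marker coverage overlapped between genotypes, at 3.37 to 7.98 kb in scramble and 2.76 to 6.32 kb in knockout libraries. In peak lists from bulk cells, acetylation in fewer cells and less acetylation per cell cannot be told apart.

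The gene windows gave the same pair, but they hold the peak described above and are not separate evidence. They also take in the edge of the neighbouring H2BC13/H2AC13/H3C10 region. That region had 3.68 ± 0.094 kb in scramble and 3.47 ± 0.18 kb in knockout cells with DMSO and did not pass. H2BC14, tested over its whole 5 kb window, was covered over 2.37 ± 0.23 kb in scramble and 1.68 ± 0.21 kb in knockout cells with DMSO (log2 −0.42 ± 0.096, n = 3, adjusted p = 0.029), and over 2.29 ± 0.060 and 1.84 ± 0.065 kb with dexamethasone (log2 −0.34, adjusted p = 0.072). H2AC14 went from 3.09 ± 0.23 to 2.403 ± 0.21 kb with DMSO (log2 −0.34, adjusted p = 0.066) and from 3.01 ± 0.060 to 2.56 ± 0.065 kb with dexamethasone (log2 −0.28, adjusted p = 0.13). Averaged over treatments both fell, by 0.38 (H2BC14, adjusted p = 0.0044) and 0.31 (H2AC14, adjusted p = 0.012) on the log2 scale. The H2BC14 call under DMSO ended in 5 of the fits that left out 1 library, without any of the 3 scramble DMSO libraries or knockout DMSO library 2 or 3 (adjusted p = 0.065 to 0.11). It ended as well with only the 2 compared groups in the fit (log2 −0.43, adjusted p = 0.12) and with strong peaks alone (log2 −0.47, adjusted p = 0.059), at differences no smaller. Windows of 25 kb took in neighbouring peaks and ended every call.

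Counts of called genes did not set the histone genes apart. By window coverage, 1 of 48 tested histone genes was called under DMSO (6.02% of all 15740 tested genes), 0 of 48 under dexamethasone (6.44%, with 2 histone genes at an unadjusted p under 0.05) and 2 of 48 in the averaged contrast (11.7%). The calls were all lower. Strong peaks alone gave 4 lower (7.54% of all genes tested so), 3 (8.39%) and 7 (14.3%) of 48, the 7 being H2BC14, H2AC14, H3C10, H2AC13, H2BC13, H2AC15 and H2BC15, neighbours in the fourth cluster whose windows overlap in part. By merged region, 1 of 29 was called under DMSO (7.81% of 59735 regions), 1 under dexamethasone (9.01%) and 2 in the averaged contrast (14.2%). Every one of these shares is near or under its background, so the counts are no result about the histone genes as a set.

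The other region past the threshold in the averaged contrast is given as a description. It overlaps the edge of the H4C13 window but no histone gene (27878043 to 27880378). It was covered over 1711, 1608 and 1117 bp in the scramble DMSO libraries, over 0, 0 and 1940 bp in the scramble dexamethasone libraries, and is listed at 0 in all 6 knockout libraries. The region was tested only because 4 scramble libraries cover it, and the knockout values have no spread, so its call supports nothing. The averaged difference was −1.37 on the log2(bp + 500) scale (adjusted p = 0.036), and the difference under DMSO −1.96 (adjusted p = 0.053). The averaged call was made in 3 of the 12 fits that left out 1 library, those without a scramble dexamethasone library, and its adjusted p reached 0.072 in the others. No peak here was strong in enough libraries to be tested.

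The regions next in p under DMSO did not pass. H2AC15/H2BC15 was covered over 3286, 2813 and 2787 bp in scramble and 2624, 2667 and 2583 bp in knockout libraries (log2 −0.17, adjusted p = 0.11). H4C4, an H4 gene, was covered over 1299, 887 and 1088 bp in scramble and 791, 818 and 828 bp in knockout libraries (log2 −0.30, adjusted p = 0.16). With strong peaks alone the H4C4 region passed (log2 −0.32, adjusted p = 0.041). H2BC13/H2AC13/H3C10 had 3789, 3651 and 3610 bp against 3578, 3254 and 3569 bp (log2 −0.10, adjusted p = 0.19). The region inside the span of H2BC5, an H2B gene, went the other way, with 778, 752 and 2664 bp in scramble and 2693, 2487 and 2555 bp in knockout libraries (log2 0.85 ± 0.35, adjusted p = 0.22). Its groups overlap through scramble DMSO library 3, and it passed in the fit without that library (log2 1.32, adjusted p = 0.0069) and in no other that left out 1. Under dexamethasone H4C11 had the second smallest p (log2 0.43, adjusted p = 0.40), with 1385, 1204 and 1166 bp in scramble and 2306, 2410 and 1188 bp in knockout libraries. In that comparison 2 of the 3 knockout values lay above the scramble ones.

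**Figure D3:**
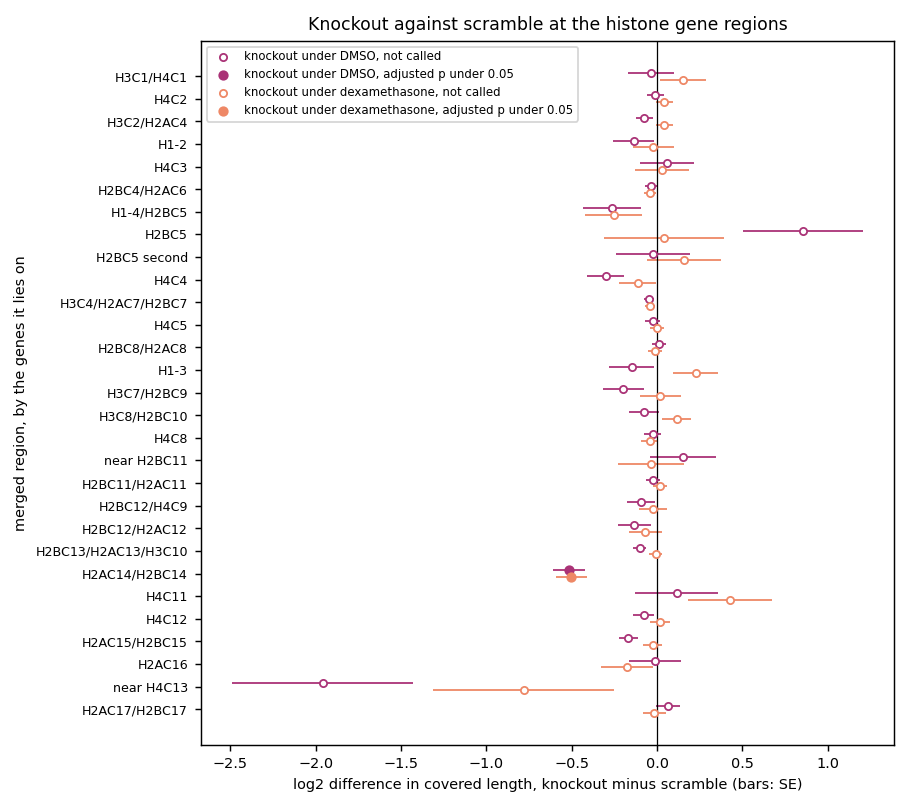
Difference in log2(covered bp + 500), knockout minus scramble, with SE, for the 29 tested regions in chromosome order (rows), under DMSO and under dexamethasone. Filled points passed an adjusted p of 0.05. H2AC14/H2BC14 is filled in both, at −0.52 and −0.50, and most other regions lie near 0.

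Mean peak width, a second measure, gave 0 calls with limma among 47 histone genes under DMSO (0.596% of 13412 genes), under dexamethasone (0.455%) and in the averaged contrast (1.76%). At an unadjusted p under 0.05 there were 5, 0 and 5. The smallest p under DMSO belonged to H2AC14, H2BC14 and H3C10, which share the same 2 peaks (log2 −0.22, adjusted p = 0.29, with group means of 2418 and 2076 bp), and next to H4C4 and H2BC6, which share 1 (log2 −0.41, adjusted p = 0.33). When only peaks with at least 50% of their length inside the window counted, H2BC14 was called in all 3 contrasts.

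The median log2 difference of the histone genes was slightly below that of all genes, −0.06 against 0.01 under DMSO and −0.07 against −0.01 under dexamethasone. Below 0 were 37 and 35 of the 48 genes. Scaling to total covered length left 36 and 34 below 0. Without normalisation 36 of 48 lay below 0 under DMSO, but 28 of 48 lay above 0 under dexamethasone, where the median of all genes moved from −0.01 to 0.05. Neighbouring windows share peaks. By merged region, where each peak counts once, 23 of 29 lay below 0 under DMSO and 17 of 29 under dexamethasone. By width 37 of 47 lay below 0 under DMSO, but 30 of 47 lay above 0 under dexamethasone.

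Dexamethasone gave no called change at the histone genes. By window coverage 0 of 48 were called with limma in scramble cells (0.0508% of all genes), in knockout cells (0.0381%) and averaged (0.0635%), with 0, 0 and 2 at an unadjusted p under 0.05. By width 0 of 47 were called (0.119%, 0.0447% and 0.0298%, with 0, 4 and 1 at p under 0.05), and by merged region 0 of 29 (0.593%, 0.412% and 0.465%, with 0, 4 and 2). With backgrounds this low, 0 calls among 48 genes does not distinguish them from other genes.

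By window, the members of smallest p with the drug differed by log2 0.31 or less. In scramble cells these were H2AC17, H2BC17 and H3C12, whose windows hold the same peak, of 4857, 3673 and 4656 bp with DMSO and 4721, 4650 and 4725 bp with dexamethasone (log2 0.21, adjusted p = 0.72). The second scramble DMSO library was the low one. In knockout cells H1-3, a linker histone gene, had 2017, 1454 and 1488 bp with DMSO and 2065, 2042 and 2098 bp with the drug (log2 0.31, adjusted p = 0.82). H2AC15 and H2BC15 followed, at 2624, 2667 and 2583 bp with DMSO and 2703, 3179 and 2780 bp with dexamethasone (log2 0.18, adjusted p = 0.83).

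By merged region, the smallest p in scramble cells belonged to the stretch near H4C13, with log2 −1.18 and an adjusted p of 0.68. Scramble dexamethasone library 3 was the covered one of its group, and without it, with only libraries at 0 left on that side, the difference was −1.97 (adjusted p = 0.007).

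A region within the long span of H2BC5 had the largest drug difference in knockout cells. This H2B gene is annotated over 13229 bp, and the region (26163564 to 26166301) lies inside that span, 3′ of the start site. It was covered over 2693, 2487 and 2555 bp in knockout DMSO libraries and over 530, 796 and 657 bp with dexamethasone (log2 −1.36 ± 0.35, adjusted p = 0.28). In scramble cells it was 778, 752 and 2664 bp with DMSO and 393, 753 and 764 bp with the drug (log2 −0.55, adjusted p = 0.85). A wide form of the peak thus appeared in 4 of 6 DMSO libraries, the 3 knockout ones and scramble library 3, and in 0 of 6 dexamethasone libraries. The difference in knockout cells passed in the fit without scramble DMSO library 3 (adjusted p = 0.033) and in no other, and the drug responses of the genotypes did not differ detectably (log2 −0.81, adjusted p = 0.96). By width, H2BC5 (log2 −0.36) and H1-1 (log2 0.41) had the smallest p in knockout cells, both with an adjusted p of 0.80.

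**Figure D4:**
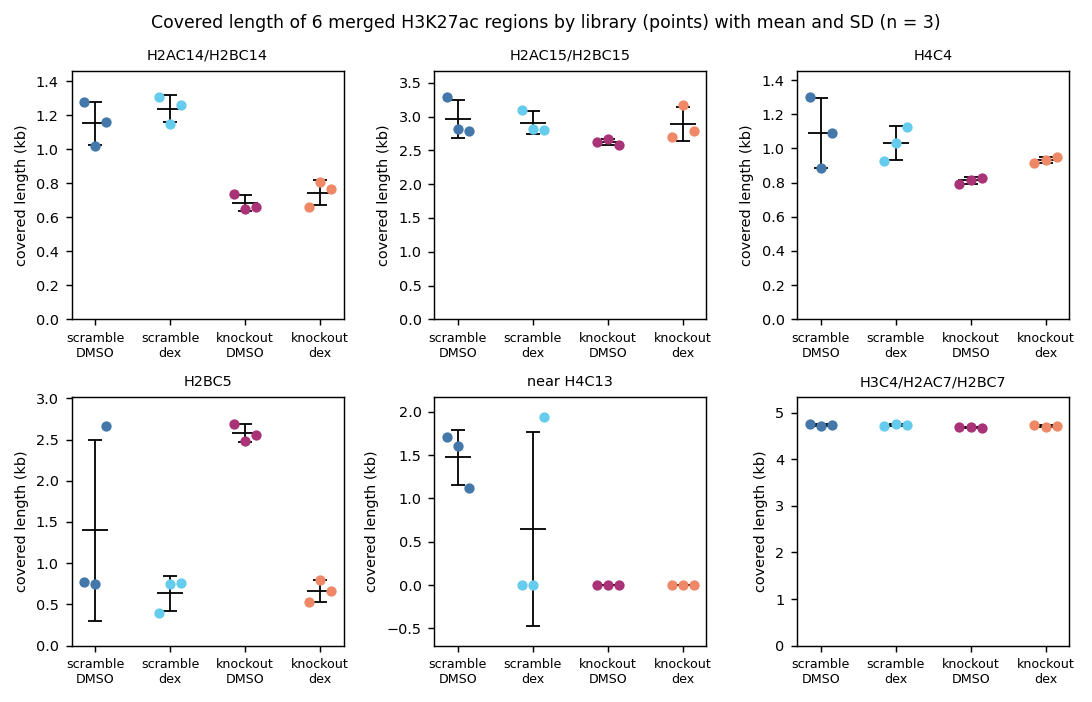
Covered length in kb of 6 merged regions, by library (points) with the mean and SD of each group of 3 (lines). H2AC14/H2BC14 is lower in all 6 knockout libraries, the H2BC5 region is near 2.6 kb in 4 DMSO libraries, and H3C4/H2AC7/H2BC7 stays between 4681 and 4765 bp.

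With dexamethasone most window differences were slightly above 0, though neighbouring windows share peaks. In scramble cells 40 of 48 lay above 0 (median log2 0.09, all genes 0.04), and 41 of 48 when scaled to total covered length. Without normalisation 15 of 48 did (median −0.03, all genes −0.06), so the direction in scramble cells depended on normalising. By merged region, where each peak counts once, 16 of 29 lay above 0 in scramble cells (median 0.008, all regions 0.015). By width 13 of 47 did (median −0.037, all genes 0.008), so the direction there depended on the measure as well. In knockout cells 45 of 48 lay above 0 (median 0.11, all genes 0.03), 45 of 48 scaled to total covered length and 40 of 48 without normalisation. There 25 of 29 lay above 0 by merged region (median 0.068, all regions 0.013) and 42 of 47 by width (median 0.057, all genes 0.005). These differences were small and none was called.

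The drug response of the histone genes did not differ detectably between genotypes. The interaction test gave 0 calls with limma by window (0.0127% of all genes), by width (0.0224%) and by merged region (0.152%), with 0 at an unadjusted p under 0.05 in each. H1-3 and H4C6 had the smallest p by window, with differences of log2 0.35 and 0.60 (adjusted p = 0.99 for both).

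Among other genes of the histone system, fitted in the same model of window coverage, each list had 0 or 1 called genes per contrast. The shares of all genes called were 6.02% and 6.44% with the knockout under DMSO and dexamethasone, 11.7% averaged and under 0.1% with the drug, so 0 or 1 call in a list of 11 to 18 genes is no result about that list. The other replication-dependent histone genes, most of them on chromosome 1, gave 0 calls of 13 tested in each of the 7 contrasts, with 2 at an unadjusted p under 0.05 in the averaged knockout contrast and 0 in the rest. Their median was −0.08 with the knockout under DMSO (all genes 0.005), and all 13 lay below 0 there. All 13 also lay below 0 with the knockout under dexamethasone, and above 0 with the drug in scramble and in knockout cells. Windows of close neighbours can share peaks, so the 13 need not be separate observations. H2AC18, the one of smallest p, was covered over 1.03 ± 0.18 kb in scramble and 0.781 ± 0.038 kb in knockout cells (log2 −0.26, adjusted p = 0.43).

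Of 11 tested replication-independent variants, 1 was lower with the knockout under DMSO and 0 higher. MACROH2A1, which encodes macroH2A with its large additional domain, was covered over 11.3 ± 2.9 kb in scramble and 5.21 ± 2.9 kb in knockout cells with DMSO (log2 −1.14 ± 0.29, n = 3, adjusted p = 0.049), a call kept in 3 of the 12 fits without 1 library (adjusted p = 0.0096 to 0.16). With dexamethasone it did not pass (8.57 ± 1.4 and 5.41 ± 1.3 kb, adjusted p = 0.26), and averaged it fell by 0.92 (adjusted p = 0.016), called in all 12 such fits but not with strong peaks alone (log2 −0.25, adjusted p = 0.51).

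Regulators of histone gene transcription and pre-mRNA processing gave 0 calls of 18 tested in any contrast, with 3 at an unadjusted p under 0.05 in the averaged knockout contrast. NPAT, the coactivator, had the smallest p there (6.29 ± 1.0 kb in scramble, 4.99 ± 0.82 kb in knockout, n = 6, log2 −0.37, adjusted p = 0.087). Histone chaperones gave 0 of 13, also with 3 at an unadjusted p under 0.05 in that contrast. NAP1L1, which carries H2A and H2B, had 3.81 ± 1.5 kb in scramble and 1.99 ± 0.20 kb in knockout cells with DMSO (log2 −0.75, adjusted p = 0.058).

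In a list of glucocorticoid-induced genes, the drug calls were at ZBTB16 and FKBP5. ZBTB16, a zinc finger repressor gene, rose from 0.646 ± 0.65 to 11.8 ± 2.3 kb in scramble cells (adjusted p = 0.0053 in limma). It was called in knockout cells as well (listed at 0 with DMSO, 3.34 ± 0.65 kb with the drug, adjusted p = 0.046). That was 1 of 9 tested in each, beside 0.0508% and 0.0381% of all genes. The second call was kept in 2 of the 12 fits without 1 library (adjusted p = 0.0058 to 0.19). ZBTB16 could pass the coverage filter through the dexamethasone libraries alone, and its knockout DMSO values have no spread. Its drug calls are therefore given as a description. FKBP5, which encodes a co-chaperone of the glucocorticoid receptor, rose averaged over genotypes, from 6.04 ± 0.92 to 8.94 ± 1.2 kb (n = 6, log2 0.64, adjusted p = 0.035, and 0.035 to 0.11 without 1 library).

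Under dexamethasone ZBTB16 was lower in knockout than in scramble cells (11.8 ± 2.3 to 3.34 ± 0.65 kb, log2 −1.75, adjusted p = 0.017, called in 9 of the 12 fits without 1 library). The difference of its drug responses did not pass (log2 −0.83, adjusted p = 1). TSC22D3, the gene of the leucine zipper protein GILZ, was lower there too (8.45 ± 0.52 to 6.22 ± 0.39 kb, log2 −0.47, adjusted p = 0.047), a call kept in 2 of 12 such fits. Averaged over treatments it fell by 0.37 (adjusted p = 0.019) and was called in all 12.

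Of the 23 other protein-coding genes between the histone clusters and around them, 13 were tested. HMGN4, which encodes a nucleosome-binding protein, was the 1 called. The shares of all genes called were 6.44% with the knockout under dexamethasone and 11.7% averaged, so this count is no result about the neighbours. HMGN4 was higher with the knockout under dexamethasone (1.81 ± 0.057 to 3.70 ± 0.26 kb, log2 0.79, adjusted p = 0.02, called in 8 of the 12 fits without 1 library). Averaged over treatments it rose by 0.65 on the log2 scale (adjusted p = 0.005 in limma) and was called in all 12 such fits. With 1 kb windows it was called in neither contrast (log2 0.03, adjusted p = 0.92 under dexamethasone, and log2 0.003, adjusted p = 0.99 averaged). With DMSO it was 1.79 ± 0.056 and 2.97 ± 0.89 kb (log2 0.51, adjusted p = 0.13).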

How the data were processed

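H3K27ac CUT&RUN was measured in 12 libraries of RPMI 8226 cells, 100000 cells per assay per the labels. Reads were aligned with Bowtie2 2.4.2 to hg38 and peaks called with MACS3 3.0, per the submitters' processing notes, which name no control library. The deposited files are 1 list of broad peaks per library. Their start and end positions are plain coordinates (unit other). The deposited score is a caller score that was not used further. The deposited fold is a ratio over background and, like the deposited −log10 p and −log10 q, was used to rank or filter peaks within a library.

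Covered bp were summed per gene window (5 kb on either side) and per merged region, and mean peak width was taken per window. Genes and regions covered in at least 3 libraries were fitted with limma 3.58.1 in R 4.3.3 (trend, robust, all 12 libraries) on quantile-normalised log2(bp + 500). Widths were fitted on a log2 scale without normalisation. Benjamini-Hochberg adjustment ran over all features of a fit, with a threshold of 0.05. The fits were tested on simulated data. Tables and figures used Python 3.11.15, NumPy 2.4.6, pandas 2.3.3 and Matplotlib 3.10.9. Peaks outside chromosomes 1 to 22 and X were left out.

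Named were members and regions past the threshold, the 2 of smallest p per contrast and measure, the highest and lowest of each class, the testis variants, CEBPB, and per list and contrast the genes called and the 1 of smallest p. For brevity, some of the non-passing ones are not printed, nor are the SLAMF7 calls and the averaged calls of ZBTB16. The H2AC15/H2BC15, H4C4 and H2BC13/H2AC13/H3C10 regions, and that of H2BC5 under DMSO, were named after their values were seen. The members, lists and tests were chosen with earlier results of these data known. Alternatives were other windows, offsets, filters, scalings, peak thresholds, overlaps, merging, models, a replicate block, and each library left out.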

Additional observations from a re-analysis of the deposited data

How the results depend on the processing

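No called difference at the histone genes changed sign in the alternatives run. Called histone genes by window numbered 2 with 1 kb windows, 0 with 25 kb windows, 4 with strong peaks, 0 with the replicate block and 0 with the compared groups alone in the knockout contrast under DMSO, and 0 to 1 without 1 library. Under dexamethasone they numbered 2 with 1 kb windows, 3 with strong peaks and 1 with peaks at least 50% inside the window. In the averaged knockout contrast they numbered 0 with 25 kb windows, 7 with strong peaks and 1 with peaks at least 50% inside. By width, peaks at least 50% inside gave 1 in each of these 3 contrasts. By merged region the knockout contrast under DMSO gave 2 without normalisation and 1 to 2 without 1 library, that under dexamethasone 0 with strong peaks, and the averaged one 1 with the replicate block and 1 to 3 without 1 library. Under DMSO with strong peaks, the H4C4 region passed and that of H2AC14/H2BC14 did not. The drug contrasts gave 0 to 1 without 1 library in scramble cells, in knockout cells and averaged. Cluster totals moved with the window, to 38.3 and 49.4 kb (the second cluster, 1 and 25 kb), 8.54 kb (the third, 25 kb), and 14.2 and 18.8 kb (the fourth, 1 and 25 kb).

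Signs turned for H2AC17 and H2BC17 with the drug in scramble cells (log2 −0.093, 25 kb windows), for H2AC14 and H2BC14 with the knockout under dexamethasone (0.076, 25 kb windows) and for H2AC14 there with peaks at least 50% inside (0.059). By width they turned for H2AC7 and H3C4 with the drug in scramble cells (0.001 with peaks at least 50% inside and with the widest peak). For H2AC14 and H2BC14 under dexamethasone the width difference was 0.098 with strong peaks and 0.004 with the widest peak, and for H2AC14 0.148 with peaks at least 50% inside. None of these was called as reported, and the cause was not tested. A 25 kb window takes in other genes' peaks by construction.

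Replicate numbers did not pair the libraries: same-number correlations of deviations ran from −0.05 to 0.08 over 18 pairs, and 6 of 12 libraries correlated best with their own number. With the replicate block H2BC14 under DMSO had log2 −0.42 and an adjusted p of 0.068. Among the other genes named, the calls of ZBTB16 with the drug in knockout cells (adjusted p = 0.15), FKBP5 (0.17) and TSC22D3 under dexamethasone (0.051) ended with it. It changed no other call at the histone genes beyond the counts above, and the H2AC14/H2BC14 region passed with it (adjusted p = 0.024 under each treatment). Unknown depth limits every value, since an edge or a weak peak can be lost in a shallower library.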
